A study of Mus musculus with 8 samples.

Results

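The epidermal differentiation region of mouse chromosome 3 was examined in GFP-positive and GFP-negative cells sorted from MAM326, a mammary cancer line of the mouse. Its members were all non-control array rows whose probe lay between 90292316 and 94564090 on chromosome 3 (mm9), a stretch of 4.27 Mb. These were 231 of 59305 rows, 204 of 55681 probes and 137 of 34821 names. By name they fell into 14 S100 genes, 15 Sprr genes, 19 Lce genes and 89 others. The region was chosen from the difference between GFP-positive and GFP-negative cells on these same arrays. That difference is therefore given for the members as a description. Counts of members past a threshold in it are printed only beside the share of all features, and no member's difference is supported by them.

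The study compared GFP-positive with GFP-negative cells of the line on 8 one-colour arrays, 4 of each. Both groups were grown in the same serum-containing medium with no other agent named, and were sorted 2 days after seeding. The labels report 4 independent experiments at different passages, and each array was labelled from 20 ng of total RNA. The labels do not say which promoter controls GFP or which array belongs to which experiment, so the spread between arrays may be partly technical. A single cell line was used.

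The region holds several families that arose by gene duplication. S100 genes encode small calcium-binding EF-hand proteins that act inside cells on the cytoskeleton and membranes, and some are secreted. Sprr (small proline-rich), Lce (late cornified envelope) and loricrin genes encode proteins that transglutaminases crosslink into the cornified envelope of terminally differentiating keratinocytes. In the mammary gland such envelope proteins are mainly known from squamous change.

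Members of 1 family can resemble each other so closely that a probe may report more than 1 of them, and the following stretches of 30 probe bases show where this limits the results. Capitals mark bases that differ from the first sequence of each set. The Lce1h probe (chr3:92567272-92567331, mm9, minus strand) and the second Lce1i probe (chr3:92581269-92581328, minus strand) differ at 4 of 60 positions, 2 of them shown.
Lce1h: aagacttcaaacaaatggtgcaggaggagc
Lce1i, second probe: aagacttcaGacaaatAgtgcaggaggagc

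The Lce3c probe (chr3:92749506-92749565, plus strand) differs from that of Lce3b (chr3:92737872-92737931) at 6 of 60 positions. It differs from the Lce3d probe (chr3:92762371-92762430) at 3 of the 41 positions over which they overlap.
Lce3c: tttatctgatcctggagagtcttctctgcc
Lce3b: tttGtctgatcctggaCaCCcttctctgAT
Lce3d: tttGtctgatcctggagaACcttctctgcc

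The probe named Sprr2a2 that was well above background on all 8 arrays (chr3:92060587-92060646, plus strand) differs at 5 of 50 overlapping positions from the probe of an unnamed transcript, NAP061720-1 (chr3:92277148-92277207, minus strand). It also matches a probe mapped outside the region at 51 of 55 positions, whereas the other 2 probes named Sprr2a2 were not well above background on any array. What it measures is therefore uncertain.
Sprr2a2: cccattccatatgaattcatggcctaataa
NAP061720-1: cccattcAatatAaattcatggcctaCtGT

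Promoters show what the cornified families share and do not share in sequence. RefSeq promoters of GRCm38.p6, from 250 bases before to 50 bases after a start, were found for 71 of the 137 names, with 82 starts. The AP-1 motif TGANTCA (both strands) lay in 9 of 13 Sprr promoters, 2 of 15 S100 promoters and 0 of 18 Lce promoters, against 7.8% of all 32851 promoters in the table. The TATA box TATAAA lay in 10 of 13 Sprr, 4 of 15 S100 and 3 of 18 Lce promoters, against 13.6% of all. The Klf-type motif CCACCC lay in 5 of 13 Sprr, 9 of 15 S100 and 1 of 18 Lce promoters, against 31.5% of all. A match describes these letters and is not a binding site.

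The 250 bases before the start of Sprr1a (chr3:92485882-92486131, GRCm38.p6, minus strand), Sprr1b (chr3:92438780-92439029, minus strand) and Lor (chr3:92083143-92083392, minus strand) are shown because they carry both AP-1 and TATA motifs, in capitals with any Klf-type motif. The AP-1 matches began 146 and 116 bases before the start in Sprr1a, 111 bases before it in Sprr1b and 48 bases before it in Lor. The TATA boxes began 43, 30 and 27 bases before the start.
Sprr1a: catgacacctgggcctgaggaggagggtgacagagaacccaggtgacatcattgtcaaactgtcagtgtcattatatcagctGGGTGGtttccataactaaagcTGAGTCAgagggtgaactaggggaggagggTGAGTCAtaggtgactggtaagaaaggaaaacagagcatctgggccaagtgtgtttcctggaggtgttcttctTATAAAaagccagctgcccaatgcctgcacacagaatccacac
Sprr1b: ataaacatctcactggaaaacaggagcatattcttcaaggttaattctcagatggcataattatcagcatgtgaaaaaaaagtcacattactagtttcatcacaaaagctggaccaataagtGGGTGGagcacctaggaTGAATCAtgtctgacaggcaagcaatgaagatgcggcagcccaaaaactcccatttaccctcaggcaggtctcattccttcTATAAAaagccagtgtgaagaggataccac
Lor: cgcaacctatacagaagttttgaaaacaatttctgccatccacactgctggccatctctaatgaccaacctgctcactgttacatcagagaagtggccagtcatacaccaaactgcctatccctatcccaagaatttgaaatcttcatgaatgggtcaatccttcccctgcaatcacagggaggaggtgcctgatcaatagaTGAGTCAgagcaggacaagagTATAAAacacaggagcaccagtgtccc

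The same stretch of Lce1g (chr3:92752339-92752588, minus strand) and Lce1i (chr3:92778900-92779149, minus strand) holds none of the 3 motifs. They are shown because they are the most alike of the 45 promoter pairs compared, without gaps, among Lce1, Lce3 and Sprr1 genes. Capitals mark the 36 of 250 positions where they differ. Over 300 bases they were identical at 86.0%, against 34.2% for the best alignment without gaps of Sprr1a with Sprr1b. Pairs that differ by inserted or lost bases score lower this way.
Lce1g: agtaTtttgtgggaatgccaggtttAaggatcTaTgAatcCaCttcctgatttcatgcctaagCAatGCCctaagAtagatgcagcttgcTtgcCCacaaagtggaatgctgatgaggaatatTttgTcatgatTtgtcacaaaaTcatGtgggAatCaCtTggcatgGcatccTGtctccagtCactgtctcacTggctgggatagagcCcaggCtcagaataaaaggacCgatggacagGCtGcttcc
Lce1i: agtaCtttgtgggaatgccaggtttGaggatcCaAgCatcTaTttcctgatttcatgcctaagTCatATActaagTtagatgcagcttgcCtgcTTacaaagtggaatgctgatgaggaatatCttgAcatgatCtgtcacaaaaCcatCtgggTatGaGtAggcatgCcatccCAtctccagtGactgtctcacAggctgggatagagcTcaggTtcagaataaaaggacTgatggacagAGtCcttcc

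Levels are log2 processed signals relative to the 75th percentile of the same array, which makes 0 that percentile, and no probe's level is set against another's. Probes were kept if 4 or more of the 8 arrays had them well above background, and the brightest kept probe stood for its gene. Of the 137 names, 67 had a kept probe. Among the rest, 44 were not well above background on any array and 26 were so on 1 to 3 arrays. The kept names gave 65 of the 19773 features tested, since 2 were represented by a brighter probe elsewhere. Across the arrays, 45.1% to 57.4% of all probes were well above background, with the highest share in GFP-positive replicate 3, and no spot was saturated.

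Detection differed between the families. All S100 genes but S100a9 were measured, 13 of 14. Of the Sprr genes only Sprr1a, Sprr1b and the uncertain Sprr2a2 probe were, 3 of 15, and Sprr2a1, Sprr2b, Sprr2d to Sprr2i, Sprr2k and Sprr3 were not well above background on any array. Lce1a2, Lce1c, Lce1f to Lce1i and Lce3b to Lce3d were measured, 9 of 19. Involucrin (Ivl) and cornulin (Crnn) were above background on 1 array each, and filaggrin-2 (Flg2), hornerin (Hrnr), repetin (Rptn) and trichohyalin-like 1 (Tchhl1) on none. Loricrin (Lor) and trichohyalin (Tchh) were above background on all 8 arrays and Kprp on 5.

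**Figure D1:**
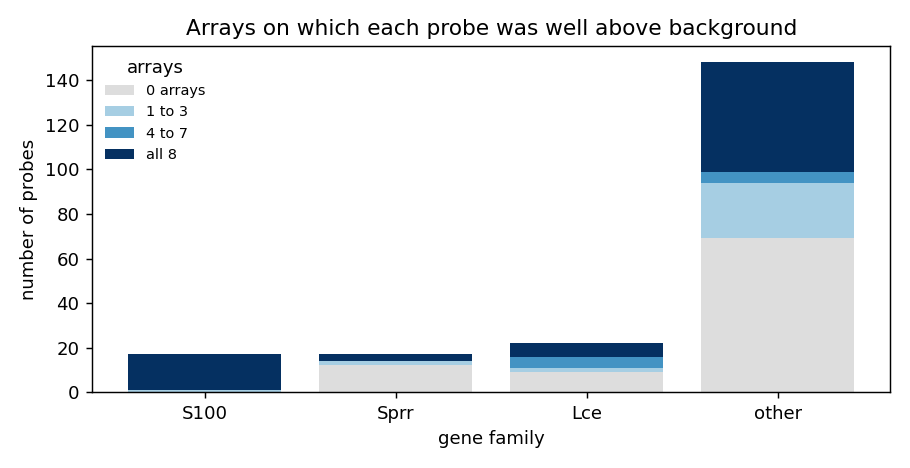
Number of member probes (y axis) by gene family (x axis), shaded by the number of arrays on which the probe was well above background. Of 17 S100 probes, 16 were so on all 8 arrays, whereas 12 of 17 Sprr probes and 9 of 22 Lce probes were so on none.

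Over the 65 features, 37 were higher and 28 lower on average in GFP-positive cells, with a median log2 difference of 0.06 against -0.06 over all 19773 features. In the fit of GFP-positive against GFP-negative over all features (limma, Benjamini-Hochberg adjustment, threshold 0.05), the count of members past the threshold was 1, S100a2, and the background was 2.55% of all features past it, 1.82% higher and 0.733% lower. In 6 members all GFP-positive arrays lay above all GFP-negative arrays, and in 6 they lay below, where 16.6% of all features had groups that did not overlap (5.07% higher and 11.6% lower). A difference of at least 2-fold was found in 10 members, all higher, against 2.05% of all features higher and 0.693% lower by that much. Because these values chose the region, nothing is read from the counts.

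**Figure D2:**
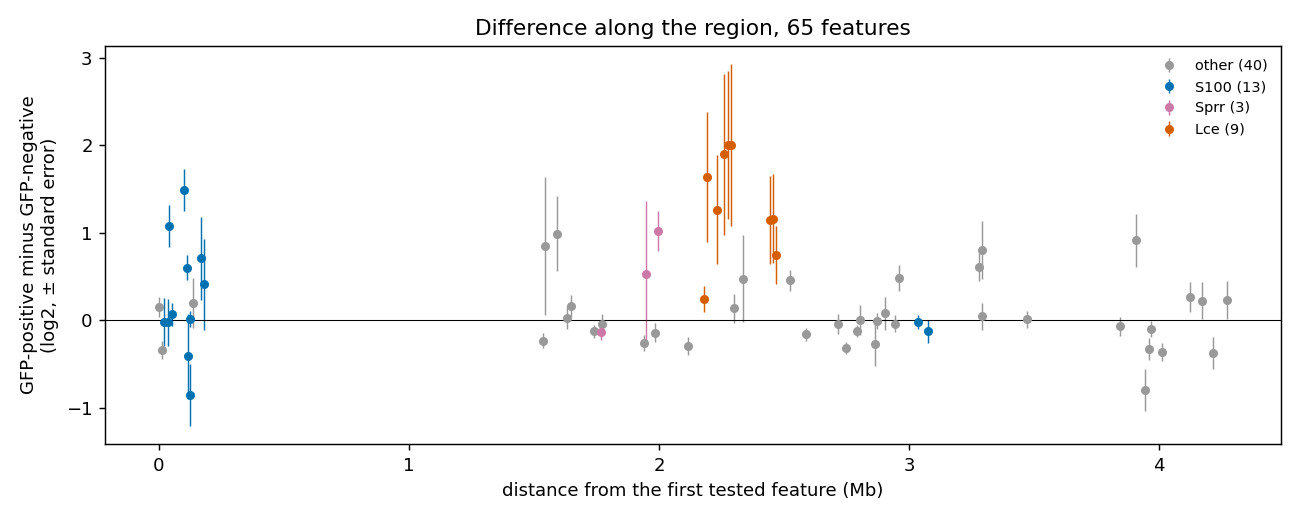
Log2 difference of GFP-positive minus GFP-negative (y axis, bars are standard errors) of the 65 tested features against distance from the first of them in Mb (x axis), coloured by family. The 9 Lce points all lie above 0 with long error bars, between 0.24 and 2.00, while S100 points lie on both sides of 0.

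The S100 genes with the clearest separation of the groups were S100a2, S100a14 and S100a3, in the cluster at the start of the region. These 3 of the 13 S100 genes were higher on all GFP-positive arrays, where 5.07% of all features were. Such values chose the region, so nothing is read from the count. S100a2, an EF-hand protein known from basal keratinocytes (probe at chr3:90395296-90395355, mm9), had levels of -1.55, -2.38, -2.22 and -2.13 in GFP-negative replicates 1 to 4 and -0.50, -0.65, -0.09 and -1.08 in GFP-positive replicates 1 to 4. All GFP-positive arrays were above all GFP-negative ones, by 1.49 ± 0.24 on average (log2, standard error of the fit), or 2.81-fold. The difference was 1.96 within slide row 1 and 1.02 within slide row 2.

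S100a14, an epithelial S100 protein (chr3:90332439-90332498), had levels of 1.68, 0.79, 1.53 and 0.90 in GFP-negative and 2.34, 2.33, 2.64 and 1.88 in GFP-positive cells. The groups did not overlap, and the difference was 1.07 ± 0.24. S100a3, known from the hair cuticle (chr3:90406396-90406455), had levels of 0.76, 1.17, 0.87 and 1.35 in GFP-negative and 1.56, 1.84, 1.54 and 1.61 in GFP-positive cells, again without overlap and with a difference of 0.60 ± 0.14. Of the other S100 genes, S100a5 had the most negative average, -0.86 ± 0.36, and its groups overlapped.

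A second pattern among the S100 genes did not follow GFP. S100a4, known for its role in cell motility and metastasis (chr3:90409908-90409967), had levels of 6.89, 8.23, 7.61 and 8.51 in GFP-negative and 7.11, 8.13, 6.32 and 8.01 in GFP-positive cells. Replicates 2 and 4 of both groups were above replicates 1 and 3 of both. S100a8, a subunit of calprotectin (chr3:90473778-90473837), had levels of 0.77, 1.06, -0.15 and 1.96 in GFP-negative and 0.69, 2.31, 0.62 and 1.65 in GFP-positive cells, with the same order of replicates. The other probe of S100a4 gave the same split, with 7.93 the lowest of the high arrays and 7.31 the highest of the low ones.

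In 6 of the 13 S100 genes, S100a1, S100a13, S100a16, S100a4, S100a8 and S100a10, replicates 2 and 4 of both groups lay above replicates 1 and 3 without overlap, and in 0 S100 genes below. Over all features the shares were 5.05% above and 3.7% below. The size of this difference ran from 0.30 on the log2 scale in S100a10, the partner of annexin A2, to 1.26 in S100a8. S100a13, which is known for its part in FGF1 release, averaged 2.72 in replicates 1 and 3 and 3.41 in replicates 2 and 4. S100a9, the other subunit of calprotectin, was above background only on 1 array, so the pair could not be compared.

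S100a6 and S100a11, 2 widely expressed S100 proteins, varied little. S100a6 ranged from 9.41 to 9.72 over the 8 arrays, with a difference between groups of 0.01 ± 0.09. S100a11 ranged from 5.49 to 5.68, with a difference of -0.02 ± 0.08. S100a7a, the mouse relative of psoriasin, ranged from -3.83 to -1.28 and its groups overlapped.

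**Figure D3:**
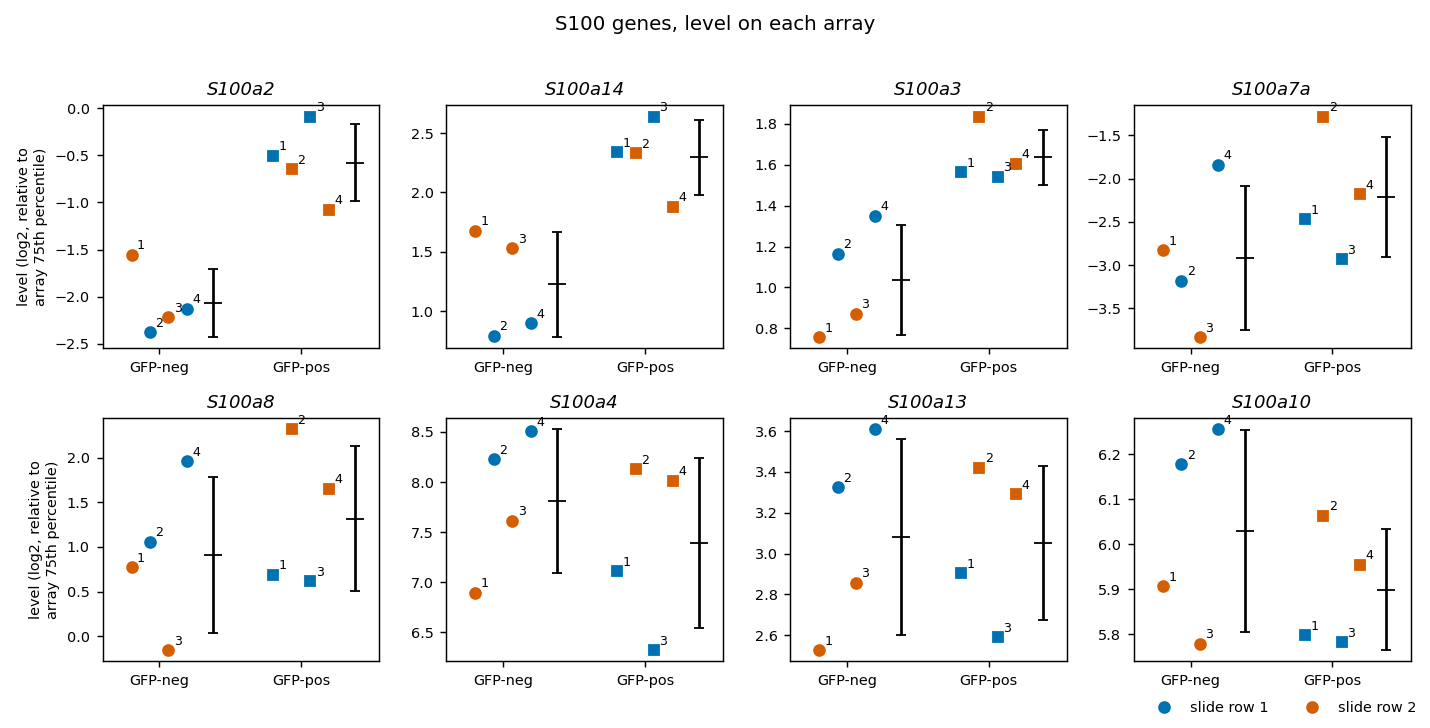
Level on each array (y axis, log2 relative to the array's 75th percentile) of 8 S100 genes in GFP-negative (circles) and GFP-positive (squares) cells, with replicate numbers, colours for the slide row, and the mean with SD over 4 arrays in black. The groups are apart in S100a2, S100a14 and S100a3, whereas in S100a8, S100a4, S100a13 and S100a10 replicates 2 and 4 of both groups are the high ones.

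The Lce genes showed large average differences and a large spread. Lce1i (chr3:92581159-92581218, mm9, minus strand) had levels of 0.68, -3.47, -1.88 and -1.80 in GFP-negative and 0.42, 0.26, 1.98 and -1.13 in GFP-positive cells. GFP-negative replicate 1 was above all GFP-positive arrays but replicate 3, so the groups overlapped, and the difference was 2.00 ± 0.93. Lce1g ran the same way, with levels of 0.75, -3.22, -1.57 and -1.77 in GFP-negative and 0.51, 0.25, 2.14 and -1.15 in GFP-positive cells, a difference of 1.89 ± 0.92. Lce1h differed by 2.00 ± 0.84, Lce1c by 1.64 ± 0.74 and Lce1f by 1.26 ± 0.63. Lce1f was well above background on all 4 GFP-positive arrays but on 1 GFP-negative array, so it was tested only through the group in which it was higher.

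All 9 Lce genes measured were higher on average in GFP-positive cells, where 7779 of all 19773 features were. By at least 2-fold 7 of the 9 were higher, where 2.05% of all features were. These values chose the region, so nothing is read from the counts. The median difference of the 9 was 1.26, which is the value of Lce1f. The median was 0.49 with normexp background correction and 0.53 with no filter on dim probes. In each of the 9 the groups overlapped. The 5 Lce1 genes other than Lce1a2 went up and down together across arrays. All 5 were highest in GFP-positive replicate 3 and lowest in GFP-negative replicate 2, and GFP-negative replicate 1 came next after the highest in 4 of them. Over the 6 Lce1 genes the median range across arrays was 4.77 on the log2 scale, against 0.60 over all features. The second Lce1i probe printed above, which the Lce1h probe resembles, is not the probe that stood for Lce1i here. The Lce1h probe may still report Lce1i in part.

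Lce1a2 was the exception, with levels from 0.95 to 1.79 and a difference of 0.24 ± 0.15, and its second probe ranged from -1.93 to -1.55. The Lce3 genes, a separate group known from barrier repair and psoriasis, had another order of arrays. Lce3c had levels of -2.33, -4.33, -4.47 and -2.97 in GFP-negative and -2.69, -2.11, -1.75 and -2.91 in GFP-positive cells. Its groups overlapped through GFP-negative replicate 1, and the difference was 1.16 ± 0.51. Lce3b differed by 1.14 ± 0.51 and Lce3d by 0.74 ± 0.33, and all 3 were highest in GFP-positive replicate 3 and lowest in GFP-negative replicate 3. The probes of these 3 genes, printed above, differ by few bases, so they may not be independent measurements.

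The Lce difference was not alike in the 2 rows of the slide. Row 1 held replicates 1 and 3 of GFP-positive and 2 and 4 of GFP-negative cells, and row 2 held the others. By this layout, a gap between the rows in the difference is also a shift between replicates 1 and 3 and replicates 2 and 4. The median difference of the 9 Lce genes was 2.68 in row 1, where all 9 were higher in GFP-positive cells, and 0.16 in row 2, where 6 were. Over all 19773 features, 8371 were higher in row 1 and 8071 in row 2. For Lce1i the difference was 3.83 in row 1 and 0.16 in row 2. Lce3b kept a difference of 1.25 in row 1 and 1.03 in row 2.

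The fibroblast and the mammary epithelial markers had their extremes on the same arrays as the Lce1 genes, the fibroblast markers in reverse. The means over the leukocyte, endothelial and suprabasal markers listed below were lowest in GFP-negative replicate 2, as Lce1 was. Each was highest on another array than Lce1. The mean level of the 6 fibroblast markers measured of 7 listed (Pdgfra, Pdgfrb, Col1a1, Col1a2, Col3a1 and Dcn) was 0.04 to 2.90 in GFP-negative and -1.74 to 1.5 in GFP-positive cells. It was highest in GFP-negative replicate 2 and lowest in GFP-positive replicate 3, the reverse of Lce1, and Lum was not above background on any array. The mean over 8 mammary epithelial markers was 2.61 to 3.35 in GFP-negative and 3.14 to 3.92 in GFP-positive cells. GFP-positive replicate 3 also had the largest share of probes above background, 57.4%. The part of these in the Lce levels was not tested, and in such bulk samples fewer cells of a type and less RNA per cell cannot be told apart.

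**Figure D4:**
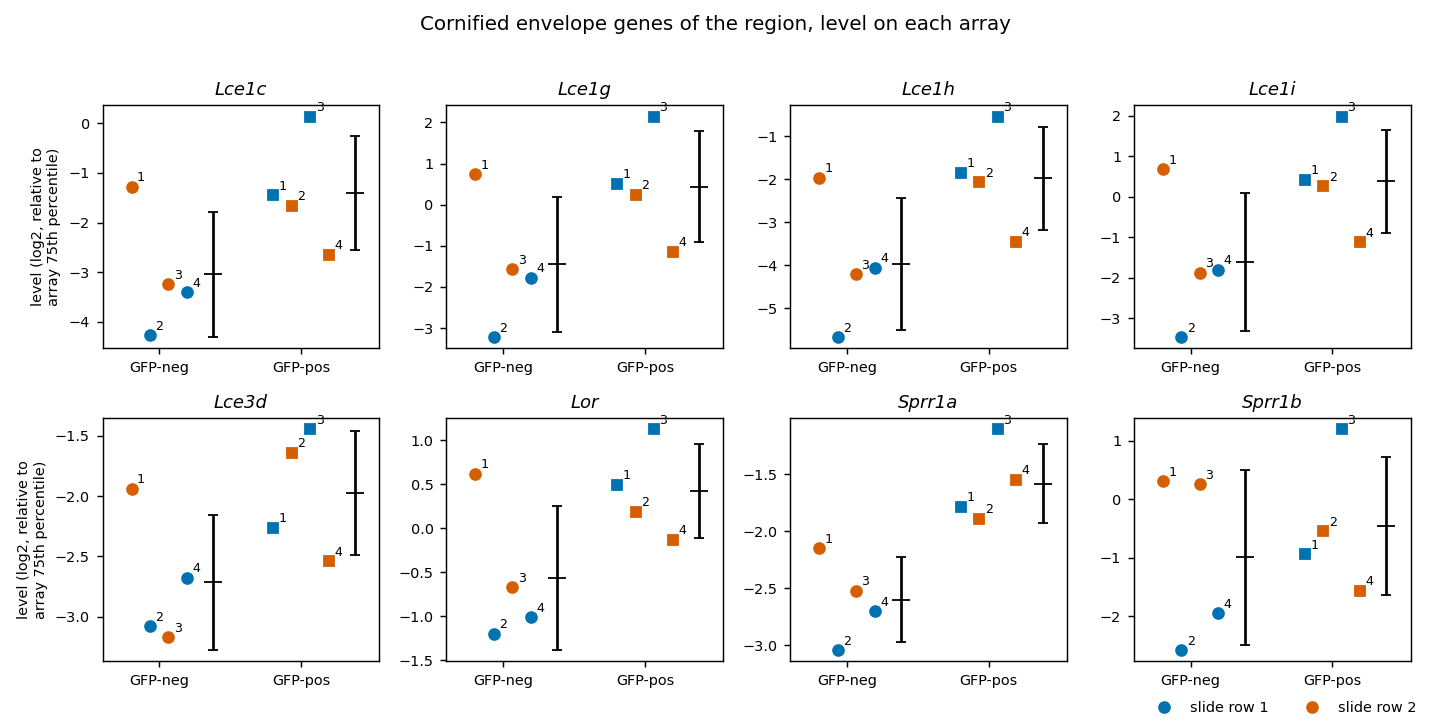
Level on each array (y axis, log2 relative to the array's 75th percentile) of 8 cornified envelope genes in GFP-negative (circles) and GFP-positive (squares) cells, with replicate numbers, colours for the slide row, and the mean with SD over 4 arrays in black. GFP-positive replicate 3 is the highest array in all 8 panels, and GFP-negative replicate 2 is the lowest in all but Lce3d. Only Sprr1a has groups that do not overlap.

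Of the Sprr genes, Sprr1a was the one with separate groups, where 5.07% of all features were higher on all GFP-positive arrays. Sprr1a, a cornified envelope precursor that is also induced by injury in other tissues (chr3:92287955-92288014, mm9, minus strand), had levels of -2.15, -3.04, -2.52 and -2.70 in GFP-negative and -1.78, -1.89, -1.11 and -1.55 in GFP-positive cells. The difference was 1.02 ± 0.23, or 2.03-fold, with 1.43 within row 1 and 0.61 within row 2. Sprr1b, its neighbour, had levels of 0.31, -2.58, 0.26 and -1.95 in GFP-negative and -0.94, -0.55, 1.20 and -1.56 in GFP-positive cells. Its groups overlapped widely, with a difference of 0.53 ± 0.83 that was 2.40 in row 1 and -1.34 in row 2. The probe named Sprr2a2 stayed between 8.39 and 8.80, and NAP061720-1, which resembles it, between 8.28 and 8.73.

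The 6 other structural genes measured were all higher on average in GFP-positive cells, where 7779 of all 19773 features were. Their median difference was 0.48, with 0.86 in row 1, where all 6 were higher, and -0.05 in row 2, where 3 were. These values chose the region, so nothing is read from the counts. Loricrin (Lor, chr3:91884206-91884265), the main protein of the cornified envelope, had levels of 0.62, -1.20, -0.67 and -1.01 in GFP-negative and 0.49, 0.19, 1.12 and -0.13 in GFP-positive cells. Its groups overlapped through GFP-negative replicate 1, the difference was 0.98 ± 0.43, and the order of the 8 arrays was the same as for Lce1c, Lce1f and Lce1g. The difference of Lor was 1.92 in row 1 and 0.05 in row 2. Crct1, a small cysteine-rich protein gene beside the Lce cluster, had levels of -3.35, -3.41, -3.63 and -3.33 in GFP-negative and -3.24, -2.89, -2.76 and -3.01 in GFP-positive cells, without overlap and with a difference of 0.45 ± 0.12. Trichohyalin (Tchh), a protein of hair root sheaths, differed by 0.48 ± 0.15, Pglyrp3, a peptidoglycan recognition protein, by 0.84 ± 0.79, Kprp by 0.47 ± 0.49 and Lelp1 by 0.16 ± 0.13. All 6 were highest in GFP-positive replicate 3. Crct1 was the 1 of the 6 without overlap, where 5.07% of all features were higher on all GFP-positive arrays.

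The 14 other named genes, most of them not part of the epidermal families, had a median difference of -0.03, with 7 higher and 7 lower. Tdrkh, a Tudor protein of the piRNA pathway, had levels of -2.92, -2.80, -3.15 and -2.52 in GFP-negative and -3.68, -3.77, -4.12 and -3.01 in GFP-positive cells. Its groups overlapped through 1 array of each, and the difference was -0.80 ± 0.24. Chtop, a factor of messenger RNA export, and Snx27, a sorting nexin, had lower levels on all GFP-positive arrays, by -0.34 ± 0.10 and -0.36 ± 0.11, as did 2210017I01Rik, by -0.30 ± 0.10. Over all features, 11.6% were lower on all GFP-positive arrays. Mrpl9, a protein of the mitochondrial ribosome, differed by -0.33 ± 0.13 and Tuft1, which encodes tuftelin, by 0.26 ± 0.17, and the groups of both overlapped.

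The 20 transcripts without a gene symbol had a median difference of -0.04, from -0.38 ± 0.19 for A_55_P2016064 to 0.80 ± 0.33 for chr3:93582250-93592950_R. The transcript chr3:93564825-93576725_F was higher on all GFP-positive arrays, by 0.61 ± 0.16, and 3 others, NAP111374-1, AK178559 and A_55_P2163198, were lower on all of them, by -0.23, -0.26 and -0.32. Over all features, 5.07% were higher and 11.6% lower on all GFP-positive arrays. Several probes of the 20 transcripts resembled probes of genes elsewhere. A_55_P2095000 matched an Rpl3 probe at 54 of 59 positions and A_55_P1954860 an Rplp0 probe at 47 of 51, and both differed by -0.13 between groups. Of the 84 kept member probes, 13 had a like probe of another name, with at least 45 matching bases. The boundary of the region was set by position. Its first feature, Snapin, differed by 0.15 and the nearest outside, Ilf2, by -0.27, while its last feature, Cgn, differed by 0.23 and the nearest outside, Pogz, by -0.19. In flanks of the same length, the median difference was -0.16 over 114 features before the region and -0.16 over 109 after it.

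A contrast that the choice of the region did not use is the difference between the slide rows in the GFP difference. By the layout of the slide it is the same contrast as replicates 1 and 3 against 2 and 4 of both groups. A GFP difference that depends on the row and a shift between these replicates therefore cannot be told apart. The plain difference between the rows is a separate contrast, given below. Over all features, 1.2% were past the threshold (limma, Benjamini-Hochberg adjusted p), 0.445% with a larger difference in row 1 and 0.754% with a larger one in row 2. In the region 1 of 65 was, cingulin (Cgn), a tight junction protein (chr3:94564031-94564090, minus strand). Cgn had levels of 3.20, 2.48, 3.26 and 2.43 in GFP-negative and 3.19, 3.03, 3.25 and 2.84 in GFP-positive cells, so replicates 1 and 3 lay above 2 and 4 in both groups. Its GFP difference was 0.76 in row 1 and -0.30 in row 2, a gap of 1.06 ± 0.15 (limma adjusted p = 0.0431). When any 1 of the 8 arrays was left out, Cgn was not past the threshold.

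At an unadjusted threshold 13 members had a larger difference in row 1 and 11 in row 2, where 19.3% of all features were past it. The S100 and Lce families lay on opposite sides. In 11 of 13 S100 genes the difference was larger in row 2, with a median gap of -0.61, and the gap was -2.47 ± 0.47 for S100a4 (limma adjusted p = 0.068) and -1.38 ± 0.25 for S100a13 (limma adjusted p = 0.0639). In all 9 Lce genes it was larger in row 1, with a median gap of 2.83, and 0 of 9 were past the threshold (limma), with 4 past the unadjusted one. In the flanks, 88 of 114 features before the region and 88 of 109 after it also had a larger difference in row 2, with medians of -0.34 and -0.30. Over all 19773 features, 10113 had a larger difference in row 2 and 9660 in row 1, with a median gap of -0.01. A plain difference between the rows, averaged over the groups, was past the threshold in 0% of all features and 0 members (limma), with 2.89% past an unadjusted threshold of 0.05.

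**Figure D5:**
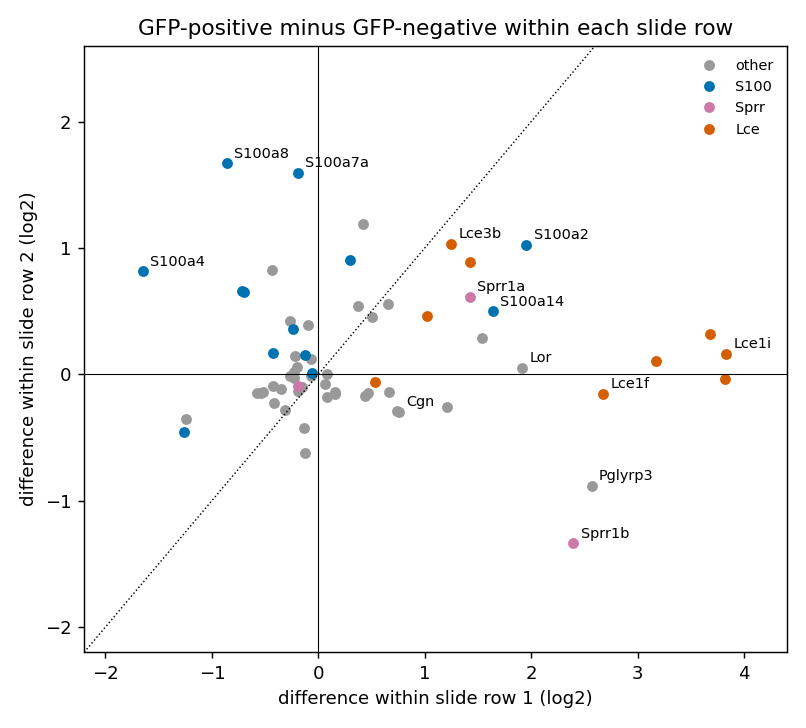
Log2 difference of GFP-positive minus GFP-negative within slide row 2 (y axis) against that within slide row 1 (x axis) for the 65 tested features, coloured by family, with a dotted line where both are equal. Lce1 genes lie far to the right near 0 in row 2, S100a4 and S100a8 lie to the upper left, and S100a2, S100a14, Sprr1a and the Lce3 genes are above 0 in both rows.

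Genes outside the region that take part in cornification were counted from a list of 41, of which 28 were measured. They had a median difference of 0.51, with 21 higher and 7 lower in GFP-positive cells, where 7779 of all 19773 features were higher. Their median difference was 1.06 in slide row 1, where 24 were higher, and -0.11 in row 2, where 8 were. Past the threshold was 1 as higher, where 1.82% of all features were, and 0 as lower. This was Cst6, which encodes the protease inhibitor cystatin M/E and was higher by 1.05 ± 0.12 (limma adjusted p = 0.0045). Transglutaminase 1 (Tgm1), which crosslinks the envelope, differed by 0.24 ± 0.14 (limma adjusted p = 0.354). Keratin 1 (Krt1), the first keratin of the suprabasal layers, was not above background on any array, and its partner Krt10 differed by -0.01 ± 0.07. The gap between slide rows was past the threshold for 3 of the 28, all larger in row 1 where 0.445% of all features were, namely envoplakin (Evpl, 1.53, limma adjusted p = 0.0374), keratin 17 (Krt17, 1.71, 0.0351) and kallikrein 6 (Klk6, 2.06, 0.0343).

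Of 19 genes listed as binding partners or receptors of S100 proteins, or as S100 genes elsewhere, 12 were measured, with a median difference of -0.01. In the GFP comparison 2 were past the threshold as higher and 1 as lower, where 1.82% and 0.733% of all features were. This list was made with earlier results of these data known, so nothing is read from its counts. Sytl1, a synaptotagmin-like protein, was higher by 3.28 ± 0.22 (limma adjusted p = 0.000553). Whether Sytl1 binds an S100 protein was not tested, and Syt1, also listed, was above background on 2 arrays only and was not measured. Mdm2, the ubiquitin ligase of p53, was higher by 1.62 ± 0.30 (limma adjusted p = 0.0359). Cacybp, the calcyclin-binding protein that partners S100a6, was lower, by -0.47 ± 0.10 (limma adjusted p = 0.0482). The annexins Anxa1 and Anxa2, partners of S100a11 and S100a10, differed by 0.20 ± 0.13 and -0.12 ± 0.10, and neither was past the threshold. The receptors Tlr4 and Ager differed by 0.01 ± 0.19 and -0.20 ± 0.21, and Ager was above background on 6 arrays only. Bsg, also listed, differed by -0.001 ± 0.10.

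S100a8 is also abundant in neutrophils. Of 16 leukocyte markers listed, 8 were measured and 0 were past the threshold (limma), and Ltf, Lyz2 and Retnlg were not above background on any array, and Ptprc was so on 1 only. Of the 8, Camp was above background on 6 arrays and the others on all 8. Csf3r, Itgam, Ly6g and Elane, which are found in neutrophils or their precursors, had differences of -0.06 ± 0.11, 0.03 ± 0.11, 0.93 ± 0.24 and 0.03 ± 0.13, and the limma adjusted p of Ly6g was 0.08. Mpo and Camp, listed with them, differed by -0.32 ± 0.38 and 0.23 ± 0.15, and Cd3e and Cd79a by -0.08 ± 0.16 and 0.46 ± 0.25. The mean level of the 8 was -0.53 to -0.33 in GFP-negative and -0.38 to -0.24 in GFP-positive cells. Of 4 endothelial markers, 2 were measured, Kdr on all 8 arrays with a difference of 0.00 ± 0.11 and Pecam1 on 6 with 0.13 ± 0.19, and Cdh5 and Tek were not above background on any array. Of 7 suprabasal epidermal markers, 4 were measured, with a mean level of -0.96 to -0.47 in GFP-negative and -0.75 to 0.05 in GFP-positive cells. Among the 4 is Lor, itself a member of the region, so this mean partly repeats its values. The others, Krt10, Tgm3 and Casp14, differed by -0.01 ± 0.07, -0.03 ± 0.10 and 0.63 ± 0.56.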

How the data were processed

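The series holds 8 Agilent one-colour arrays with 62976 spots each. Per the file headers, the authors' scanner output was made with Feature Extraction 10.7.3.1 (protocol GE1_107_Sep09), with probe positions on mm9. The deposited values used were its background-corrected processed signal intensity and, for 1 alternative, the mean signal and median background intensity, not scaled between arrays. What the authors did after extraction was not stated in the sources used.

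Flagged spots were left out, 106 to 186 per array. Log2 processed signal was set relative to the array's 75th percentile, and spots of a probe were averaged. Symbols came from RefSeq genes of GRCm38.p6, matched for 27598 of 55681 probes, and otherwise from the files. Differences were fitted with limma 3.58.1 (lmFit, eBayes, two-sided) in R 4.3.3 over 19773 features and adjusted by Benjamini-Hochberg. Like probes were searched with BLAST 2.17.0. All fits were tested on simulated data.

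The members, gene lists, named genes and tests were chosen with earlier results of these data known. Named were all measured S100, Sprr, Lce and structural genes, the 5 largest other differences in each direction (1 of them is not reported here), features at the ends, list members past the threshold (up to 4 per list), and 7 genes outside the region. NAP061720-1, NAP111374-1, AK178559, A_55_P2163198, A_55_P2095000, A_55_P1954860, 2210017I01Rik, S100a9 and markers were named after their values were seen. Alternatives were other background correction, scaling, filter, probe choice, variance prior, array weights and blocks, and leaving out each array. The labels do not say whether equal replicate numbers of the groups are pairs. Their deviations from the group means correlated at -0.03, 0.07, 0.02 and 0.18, which cannot decide it, and the main fit took no pairs. The number of arrays limits the precision.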

Additional observations from a re-analysis of the deposited data

Results flagged for a closer look

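S100a11 stood out in GFP-negative replicate 3, with a level of 5.49 where the other 3 GFP-negative arrays lay between 5.63 and 5.66. The unnamed transcript chr3:93582250-93592950_R stood out in GFP-positive replicate 2, at -2.48 against -4.04 to -3.78, and in GFP-negative replicate 4, at -4.00 against -4.52 to -4.44. In all, 3 of 84 groups of 4 arrays held such a sample, and chance gives about 1 in 20. For Cgn the GFP difference was 1.06 larger in slide row 1 than in row 2 (limma adjusted p = 0.0431).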

How the results depend on the processing

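Differences kept their direction in all settings run for S100a2, S100a14, S100a3, Sprr1a, Lor, Lce1c, Lce1h, Lce1i, Lce3b to Lce3d and Tdrkh. They changed sign in at least 1 setting for Lce1a2, Lce1f, Lce1g, Sprr1b, Pglyrp3, Kprp, Lelp1, Snapin, Tuft1, Cgn, Krt10, Anxa2, Tlr4 and 9 S100 genes (S100a1, S100a4, S100a6, S100a7a, S100a8, S100a10, S100a11, S100a13 and S100a16). Lce1g ranged from -0.04 to 3.82 and Lce1f from -0.15 to 2.68. In the GFP comparison, which called 505 features and 1 member, normexp background called 787 features and 2 members. The trend and robust prior called 1165 and 5, array weights 1479 and 7, no filter on dim probes 152 and 0, and a filter on all 8 arrays 4 members. A slide row block called 279 features. Within row 1 the counts were 1053 features and 9 members, with an Lce median of 2.68, and within row 2 they were 0 and 0, with an Lce median of 0.16 and an S100 median of 0.65. Leaving out 1 array gave 151 to 425 features and 0 to 3 members. The member count was 0 without GFP-negative replicate 2, 3 or 4 or GFP-positive replicate 1 or 3, and nothing is read from member counts in this comparison. The Lce median lay between 0.96 and 1.77 with 1 array left out, and was 0.49 with normexp background and 0.53 with no filter, where the Sprr median was -0.01 against 0.53. The Sprr median lay between -0.02 and 0.96 with 1 array left out.

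A replicate block, which takes equal replicate numbers as pairs, called 216 features and 0 members. Whether they are pairs is not known.

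For the gap between slide rows, which called 237 features and 1 member, normexp background called 782 features and 8 members, of which 6 were S100 genes. The trend and robust prior called 714 and 7, a filter on all 8 arrays 572 and 4, quantile scaling and array weights 2 members each, and no filter 0 and 0. Leaving out 1 array gave 0 to 23 features and 0 members. The plain row difference called 3880 features and 23 members without the filter on dim probes, against 0 with it. The causes were not tested. Probes not above background on every array, among them those of Lce1f, Lce1h, Lce3b and Lce3c, are the least certain.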
